A study of Mus musculus with 6 samples.

Results

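The noncoding host genes of small nucleolar RNAs (snoRNAs) were followed across the prostate lobes of a wild-type and a MYC-transgenic mouse. They are the 7 genes Gas5, Snhg1, Snhg3, Snhg5, Snhg6, Snhg8 and Snhg12, chosen by symbol, and all 7 had a row among the 24908 genes of the table, which spells them in capitals (GAS5, SNHG1, SNHG3, SNHG5, SNHG6, SNHG8, SNHG12). All 7 also passed the filter on low values, a mean of at least 1 FPKM (the level scaled to transcript length and library depth). RNA came from the anterior prostate (AP), dorsolateral prostate (DLP) and ventral prostate (VP) of FVB mice aged 12 weeks. The WT group is a wild-type littermate, and the MYC group is a Hi-MYC male heterozygous for a human c-MYC transgene that a probasin-derived promoter drives in prostatic epithelium. Both genotypes were fed a purified diet, and each lobe was dissociated to a cell suspension before its poly(A) RNA was sequenced. With 6 libraries from 2 mice, 1 for every lobe and genotype, genotype and animal are one and the same variable and cannot be told apart. There is no replicate check, and no p-value was computed.

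A snoRNA is a short RNA that stays in the nucleolus and guides the chemical modification or cutting of ribosomal RNA. Most mouse snoRNAs are cut out of introns, and the gene that carries them is called the host. C/D box snoRNAs guide methylation of the ribose, and H/ACA box snoRNAs guide conversion of uridine to pseudouridine. In the noncoding hosts the introns hold the known product, while the spliced exons make an RNA without a long conserved reading frame, which is often degraded by nonsense-mediated decay when ribosomes scan it. Many of these hosts start their RNA with a stretch of pyrimidines, the terminal oligopyrimidine (TOP) start that is also typical of ribosomal protein messages. MYC is a transcription factor known for raising genes of ribosome production.

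Gas5 and Snhg1 each hold 8 annotated snoRNA genes, more than the others. In the mouse assembly GRCm38.p6 (mm10), the build named in the submitters' processing notes, RefSeq places Gas5 at chr1:161034601-161038539 and Snhg1 at chr19:8723487-8726326. Snhg12, at chr4:132308678-132311024, holds 4 snoRNA genes of both classes. Snhg3, at chr4:132351933-132353686, holds 2 copies of the H/ACA snoRNA U17 (Snora73a and Snora73b), which acts in the cutting of the ribosomal precursor. Snhg5, at chr9:88521052-88522897, holds 2. Snhg6, at chr1:9942025-9944118, holds the C/D box Snord87, and Snhg8, at chr3:123507552-123508336, holds the H/ACA box Snora24. All 7 are annotated as lncRNA, and together they hold 26 snoRNA genes.

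**Figure D1:**
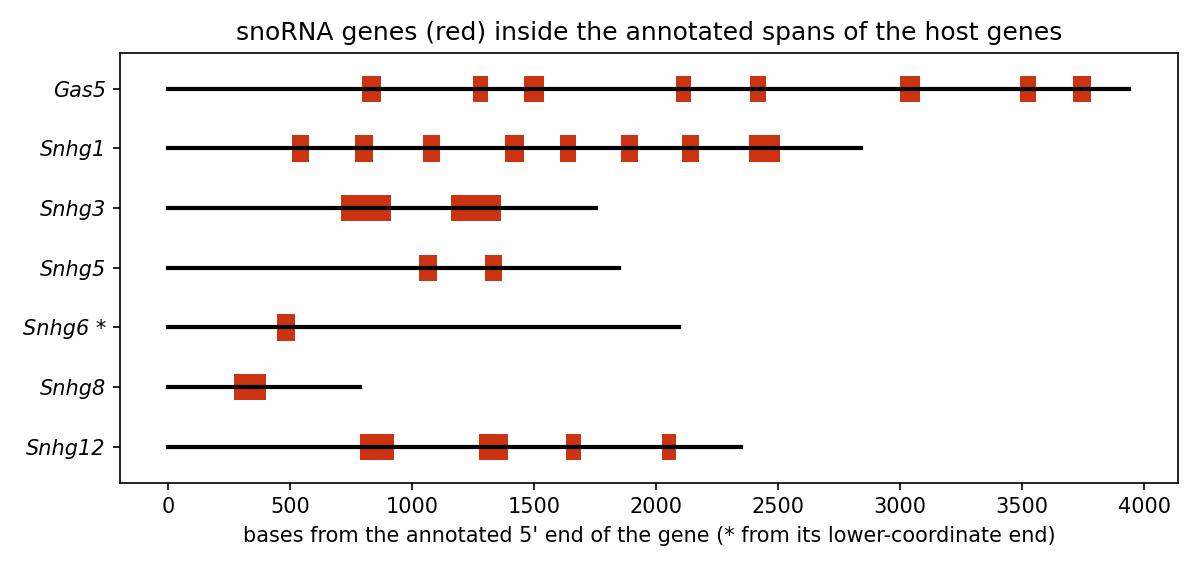
Annotated span of each host gene (black line, in bases from its 5′ end, or from its lower-coordinate end for Snhg6) with the snoRNA genes inside it (red boxes, to scale). Gas5 and Snhg1 carry 8 boxes each, and Snhg6 and Snhg8 carry 1 each.

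The sequences around the annotated starts show what these hosts share with each other. Each window runs from 30 bases before the start to 30 bases from it on, 5′ to 3′ on the strand of the gene, from RefSeq on GRCm38.p6. Capitals mark a C followed by at least 4 bases that are each C or T, where such a run begins within 10 bases of the start on either side. The searches for letters were set up after the values were known. Snhg6 had no entry among the promoter sequences.
Gas5, upstream start, chr1:161034571-161034630, plus strand: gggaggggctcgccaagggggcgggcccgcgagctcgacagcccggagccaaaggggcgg
Gas5, downstream start, chr1:161035136-161035195, plus strand: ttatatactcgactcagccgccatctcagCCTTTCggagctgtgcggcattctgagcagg
Snhg1, chr19:8723457-8723516, plus strand: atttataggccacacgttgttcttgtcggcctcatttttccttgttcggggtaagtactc
Snhg3, chr4:132353657-132353716, minus strand: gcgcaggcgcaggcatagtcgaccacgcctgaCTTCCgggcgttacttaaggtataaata
Snhg5, chr9:88522868-88522927, minus strand: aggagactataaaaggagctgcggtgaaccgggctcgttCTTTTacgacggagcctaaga
Snhg8, chr3:123508307-123508366, minus strand: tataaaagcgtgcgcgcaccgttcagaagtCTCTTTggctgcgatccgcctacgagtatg
Snhg12, chr4:132308648-132308707, plus strand: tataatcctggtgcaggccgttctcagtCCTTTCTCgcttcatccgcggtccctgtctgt

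A pyrimidine run of this kind was found at 5 of the 7 starts, those of Gas5 (the downstream one), Snhg3, Snhg5, Snhg8 and Snhg12. It was present at 29.7% of all 32851 annotated starts and at 54.4% of the 68 starts of the 58 ribosomal protein genes with an entry. The letters TATA, searched on the gene's strand from 40 to 16 bases before the start, were in 5 of the 7 windows as well, those of Gas5 (downstream start), Snhg1, Snhg5, Snhg8 and Snhg12. Among all starts 5.91% held them, and among those of the ribosomal protein genes 8.82%. Both features stood together at 4 starts, against 1.82% of all. The E-box letters CACGTG, a palindrome that MYC with MAX can bind, were in none of the 7 promoters of 300 bases (250 before the start and 50 from it on), and 7.15% of all promoters held them. These matches describe letters only. Overlapping runs and motifs were counted once per start.

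Levels in FPKM can be compared between genes, since they are per length. The read steps of low genes gave a depth of 25.5 M to 50.2 M mapped reads per library, lowest in WT AP. The row listed as Myc, which does not separate the mouse gene from the transgene, had 230.0, 201 and 226 FPKM in WT AP, DLP and VP, and 231, 586 and 1696 FPKM in the MYC lobes. It was thus 1.004-fold of WT in AP, 2.92-fold in DLP and 7.49-fold in VP. All 8 luminal markers, Krt8 and Krt18 among them, were above 0 in every library. Seminal vesicle genes summed to 524 FPKM in MYC AP and to at most 11.3 FPKM in each of the other 5 libraries. Hematopoietic markers (16 genes) summed to 215, 104 and 49.3 FPKM in WT AP, DLP and VP and to 210, 442 and 259 FPKM in MYC. Of these genes the B cell marker Ms4a1, which did not pass the filter on low values, was at 0 in all 3 WT libraries. In MYC AP, DLP and VP it had 0.0215, 1.06 and 0.0394 FPKM. Cd79a, also a B cell marker, had 1.72, 0.745 and 0.556 FPKM in WT AP, DLP and VP. In the MYC lobes it had 1.58, 5.06 and 0.245 FPKM. The log2 ratio of a gene is the log2 of its FPKM + 1 in MYC divided by its FPKM + 1 in WT, and 12361 genes passed the filter on their mean. The intervals beside them are 95% counting intervals of the reads of 2 libraries from estimated reads, and they leave out the difference between animals.

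Gas5, the host named for its accumulation in growth-arrested cells, had the highest level of the 7 in every library and the largest log2 ratio of the 7 in DLP and VP. It had 174, 179 and 155 FPKM in WT AP, DLP and VP, and 241, 374 and 622 FPKM in MYC AP, DLP and VP. As deposited, the 3 WT libraries lay close together and below all 3 MYC libraries, which stood apart in the order AP, DLP, VP. The log2 ratio was 0.47 in AP (0.40 to 0.54), 1.06 in DLP (1.01 to 1.11) and 1.998 in VP (1.95 to 2.05). In VP, 98.8% of the genes compared had a lower log2 ratio.

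Snhg1, the host of a row of C/D box snoRNAs, had the next level in every library and showed the same order. Its values were 83.1, 80.7 and 86.9 FPKM in WT AP, DLP and VP, and 109, 129 and 273 FPKM in the MYC lobes. The WT lobes differed by at most 1.08-fold, and all MYC values lay above them. Its log2 ratio was 0.38 in AP (0.33 to 0.43), 0.67 in DLP (0.63 to 0.71) and 1.64 in VP (1.61 to 1.67). Its reads were estimated with a transcript length of 2529 bases, close to its whole annotated span of 2840 bases. With a shorter spliced RNA the estimated reads would be fewer and these intervals wider. The step from MYC DLP to MYC VP, a log2 difference of 1.07, was larger than that from MYC AP to MYC DLP, 0.25.

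Snhg6 was the third member at least 2-fold higher in MYC VP. It had 20.5, 17.3 and 13.6 FPKM in WT AP, DLP and VP, and 20.6, 30.9 and 35.0 FPKM in MYC. As deposited, VP was thus the lowest lobe in WT and the highest in MYC, the latter not relative to Krt8 and Krt18, and the AP values were nearly equal. The log2 ratios in AP, DLP and VP were 0.01, 0.80 and 1.31. The AP value changed sign with the scaling of the libraries, between -0.12 and 0.18, and no transcript length was found for Snhg6. With a stand-in length of 443 bases, the shortest mean of the members, its intervals would be -0.31 to 0.33 in AP, 0.52 to 1.07 in DLP and 1.03 to 1.58 in VP. The same length gives -0.56 to 0.10 for WT DLP against AP and -0.06 to 0.41 for MYC VP against DLP.

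**Figure D2:**
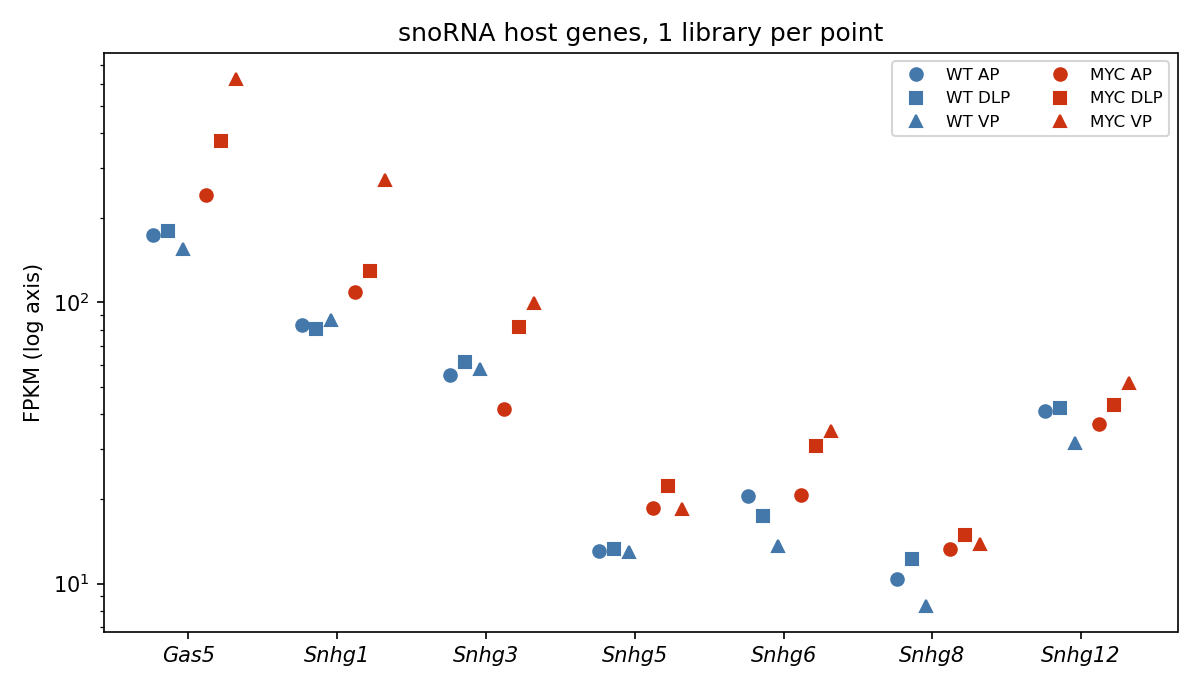
FPKM of each host gene on a log axis, with 1 point per library (WT blue, MYC red; AP circles, DLP squares, VP triangles). For Gas5 and Snhg1 all 3 red points lie above the blue ones and climb from AP to VP, whereas for Snhg3 and Snhg12 the red AP point lies below the WT AP point (for Snhg12 within counting error, and not when scaled to Krt8 and Krt18).

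Snhg3 and Snhg12, the hosts with H/ACA snoRNAs on the same stretch of chromosome 4, were higher in MYC VP than in WT VP, and Snhg3 was lower in MYC AP than in WT AP. Snhg3 had 55.4, 61.6 and 57.9 FPKM in WT AP, DLP and VP, and 41.7, 81.9 and 99.4 FPKM in MYC. As deposited, MYC AP was its lowest library and MYC VP its highest, with the WT lobes between them. Relative to Krt8 and Krt18, MYC VP was not the highest of the 3 MYC libraries. The log2 ratio was -0.40 in AP (-0.60 to -0.20), 0.41 in DLP (0.25 to 0.56) and 0.77 in VP (0.63 to 0.91), and each sign was the same under all scalings tried.

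Snhg12 had 41.2, 42.1 and 31.6 FPKM in WT AP, DLP and VP, and 37.0, 43.3 and 51.9 FPKM in MYC. Here, as deposited, WT VP was the lowest library, and the AP and DLP libraries of both genotypes lay within 37.0 to 43.3 FPKM. The log2 ratio was -0.15 in AP (-0.32 to 0.01) and 0.04 in DLP (-0.10 to 0.19), not distinguishable from 0 at this depth. It was 0.70 in VP (0.56 to 0.84). In AP and DLP its sign also turned with the scaling, from -0.28 to 0.03 and from -0.19 to 0.04.

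Snhg5 was higher in MYC than in WT in all 3 lobes, and Snhg8 beyond counting error in VP only. As deposited, both had their highest value in MYC DLP, for Snhg8 by less than counting error. Snhg5, the host of the C/D box snoRNA U50, had 13.0, 13.2 and 13.0 FPKM in WT AP, DLP and VP, and 18.6, 22.2 and 18.4 FPKM in MYC. As deposited, the WT lobes differed by 1.02-fold, the smallest spread of the 7 genes, and MYC DLP was the highest library. Its log2 difference from MYC AP was 0.25. The median of the 7 hosts for this pair, also 0.25, moved to 0.019 with equal sums and to -0.19 relative to Krt8 and Krt18. The log2 ratio was 0.48 in AP (0.27 to 0.69), 0.71 in DLP (0.53 to 0.88) and 0.47 in VP (0.30 to 0.65). Snhg8 had 10.4, 12.2 and 8.35 FPKM in WT AP, DLP and VP, and 13.3, 14.9 and 13.9 FPKM in MYC. The log2 ratios in AP, DLP and VP were 0.33, 0.27 and 0.67. No length was found for Snhg8, and the stand-in length of 443 bases would put its intervals at -0.10 to 0.76 in AP, -0.09 to 0.62 in DLP and 0.29 to 1.05 in VP. The same length gives -0.45 to 0.27 for MYC VP against MYC DLP.

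Counted together, the number of members at least 2-fold higher in MYC was 0 in AP (background over all genes compared 2.05%), 1 in DLP (Gas5, background 6.46%, and 0 with equal sums without the 20 highest genes or relative to Krt8 and Krt18) and 3 in VP (Gas5, Snhg1 and Snhg6, background 6.88%). None was 2-fold lower in any lobe, where 0.599%, 3.39% and 5.95% of all genes were. Their median log2 ratio in AP, DLP and VP was 0.33, 0.67 and 0.77 (in AP 0.21 with size factors from medians of ratios and 0.51 relative to Krt8 and Krt18), beside 0.13, 0.03 and 0.04 for all genes compared. MYC exceeded WT in all 3 lobes for 5 of 7, Snhg6 only under some scalings, beside 29.9% of all genes. As deposited, all 7 were higher in MYC DLP and in MYC VP than in every WT library, which 37.1% and 36.4% of all genes were. The MYC DLP count was 6 of 7, without Snhg12, under each of the 4 other scalings. The MYC VP count was 6 of 7 with equal sums, again without Snhg12, and 2 of 7 (Gas5 and Snhg1, beside 5.14% of all genes) relative to Krt8 and Krt18. In MYC AP this held for 5 of 7, Snhg6 again only under some scalings, beside 31.8% of all genes. The VP counts over all genes, 850 higher and 736 lower, became 555 and 1088 with equal sums of FPKM and 1075 and 349 relative to Krt8 and Krt18. The VP median of the hosts moved to 0.50 with equal sums of FPKM without the 20 highest genes and to 1.02 relative to Krt8 and Krt18.

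Across lobes of the WT animal the deposited levels of the members differed by less than 2-fold. Their median log2 difference was -0.17 for VP against AP, -0.21 for VP against DLP and 0.03 for DLP against AP, and none of the 7 reached 2-fold in any of these pairs, in which 7.89%, 2.63% and 3.85% of all genes were at least 2-fold higher and 10.3%, 6.29% and 1.31% at least 2-fold lower. The largest WT difference was that of Snhg6, -0.56 for VP against AP. In the MYC animal, 3 of 7 were at least 2-fold higher in VP than in AP, namely Gas5 (1.36), Snhg1 (1.32) and Snhg3 (1.23), against a background of 8.98% higher and 16.1% lower. Snhg1 alone was 2-fold higher in MYC VP than in MYC DLP (background 3.54% higher and 14.0% lower), and no member was so in MYC DLP against MYC AP (background 4.54% higher and 3.49% lower). None was 2-fold lower in these pairs. The MYC lobes stood in the order AP, DLP, VP for 5 of 7 members, all but Snhg5 and Snhg8, and for 28.7% of all genes. Relative to Krt8 and Krt18 it held for 0 of 7 and 1.89% of all genes. Ratios to Krt8 and Krt18, whose own level differs between lobes, turned the MYC VP against AP median from 0.74 to -0.74 and moved the WT medians of VP against AP and against DLP to -1.72 and -1.78. Equal sums turned WT DLP against AP to -0.18.

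The ribosomal protein genes, whose messages share the TOP start, were set beside the hosts. All 79 were in the table, and their median log2 ratio in AP, DLP and VP was 0.29, 0.68 and 1.35. At least 2-fold higher in MYC were 0, 3 and 71 of them, beside 2.05%, 6.46% and 6.88% of all genes, and 1 (Rpl30, log2 ratio -1.01) was at least 2-fold lower in DLP. The median of the hosts, 0.33, 0.67 and 0.77, was near theirs in AP and DLP and below it in VP. In VP the hosts were spread out: Gas5 lay 0.65 and Snhg1 0.29 above the ribosomal median on the log2 scale, Snhg6 lay at -0.05, and Snhg3, Snhg12, Snhg8 and Snhg5 lay at -0.58, -0.65, -0.68 and -0.88. Gas5 had a higher log2 ratio than 76, 76 and 77 of the 79 ribosomal protein genes in AP, DLP and VP. Snhg12 had a higher one than 0, 1 and 1 of them.

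**Figure D3:**
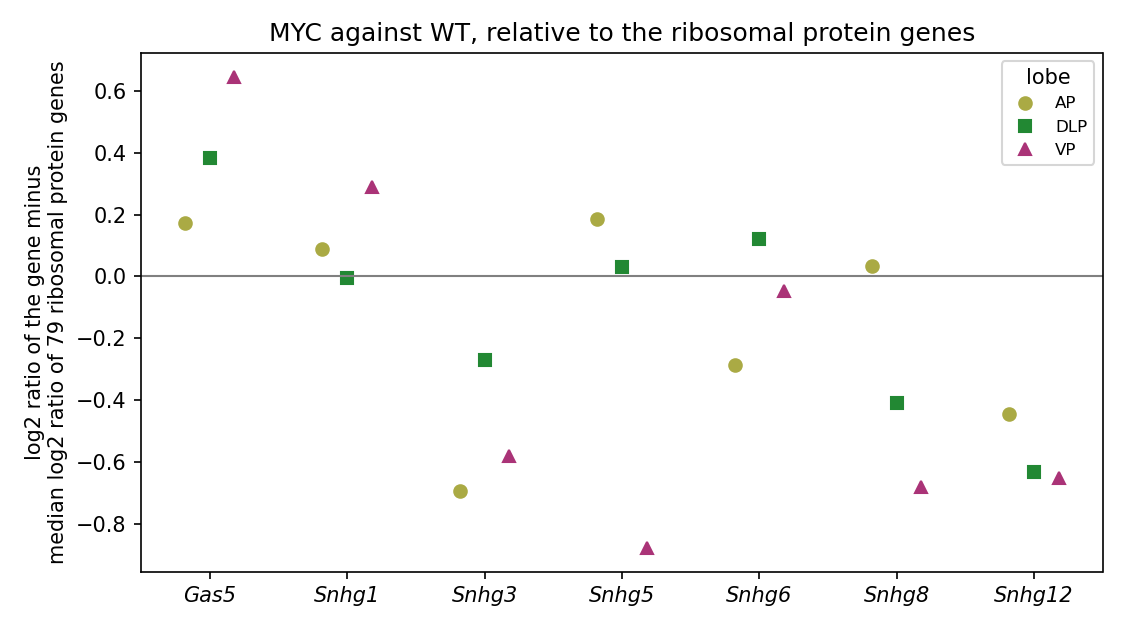
Log2 ratio of MYC against WT of each host gene minus the median log2 ratio of the 79 ribosomal protein genes in the same lobe (AP circles, DLP squares, VP triangles; the line at 0 is the ribosomal median). Gas5 lies above 0 in all 3 lobes, and Snhg3 and Snhg12 lie below it in all 3.

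Within the ribosomal protein genes, carrying a snoRNA made little difference to the median. The 30 with an annotated snoRNA in their span had median log2 ratios of 0.28, 0.69 and 1.35 in AP, DLP and VP, and the 49 without had 0.29, 0.67 and 1.35. The 35 genes with the pyrimidine run at an annotated start had a VP median of 1.45, and the 23 with entries but without the run had 1.35. Ribosomal protein genes have processed copies elsewhere in the genome, and how reads shared with such copies were counted was not tested. Rpl26 was listed at 244 FPKM in WT AP and 0.0103 FPKM in WT DLP, and its log2 ratios of 2.22 in DLP and 2.33 in VP, the highest of the list, rest on levels of at most 7.33 FPKM and are uncertain. Rpl30 had the lowest VP log2 ratio of the list, 0.02, from 21.7 FPKM in WT and 22.0 FPKM in MYC.

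Other noncoding hosts varied more than the 7. Of 14 listed, 13 were in the table and 12 had a mean of at least 1 FPKM, and their median log2 ratio in AP, DLP and VP was 0.05, 0.15 and 0.82. Zfas1, the host of C/D box snoRNAs beside Znfx1, had 28.3, 29.7 and 23.0 FPKM in WT AP, DLP and VP, and 47.2, 122 and 310 FPKM in MYC. Its WT values lay together and its MYC values climbed from AP to VP, with the highest log2 ratio of the list in DLP (1.997) and VP (3.69). Epb41l4aos had 35.2, 36.2 and 45.8 FPKM in WT and 37.5, 66.8 and 136 FPKM in MYC. Snhg7 and Snhg20 were also at least 2-fold higher in MYC VP, with log2 ratios of 1.97 and 1.43.

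On the lower side of WT in VP were 3 hosts of that list, Snhg18 at a log2 ratio of -3.05, Snhg11 at -1.30 and Snhg9 at -0.97. Snhg18 had 11.5, 18.4 and 18.0 FPKM in WT AP, DLP and VP, and 15.4, 6.32 and 1.30 FPKM in MYC, so that its MYC lobes ran in the opposite order to those of Gas5. Snhg4, Snhg17, Dancr, Snhg10 and Snhg15 had VP log2 ratios of 0.96, 0.99, 0.68, 0.40 and 0.09. Snhg14 stayed at or below 0.153 FPKM.

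Hosts were also taken from the annotation alone, as lncRNA genes with a RefSeq snoRNA inside their span. Of the 25 such genes compared, 10 were at least 2-fold higher in MYC VP and 3 at least 2-fold lower, with a median log2 ratio of 0.83. Without the 7 members, 7 of 18 were higher and the median was 0.90. These 18 overlap the list of other noncoding hosts above and are not independent of it. They share Snhg4, Snhg7, Snhg9, Snhg11, Snhg15, Snhg17, Snhg18, Dancr, Epb41l4aos and Zfas1. The 183 other lncRNA genes compared had 8 higher and 16 lower in VP and a median of -0.19. In DLP the medians were 0.41 with a snoRNA and -0.19 without, and in AP 0.09 and -0.03. Among the hosts found this way, 2410006H16Rik had 111, 137 and 137 FPKM in WT AP, DLP and VP, and 146, 326 and 546 FPKM in MYC. A similar order was seen for 1110038B12Rik, with 35.9, 41.4 and 39.1 FPKM in WT and 46.9, 102 and 172 FPKM in MYC. These 2 were singled out after their values were seen. Coding genes with a snoRNA in their span (272 genes) had a median of 0.20 in VP, beside 0.04 for the 11459 coding genes without. These 272 include 30 ribosomal protein genes. Without them, 18 of 242 (7.44%) were at least 2-fold higher in VP, near the background of 6.88%, and the median was 0.12.

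**Figure D4:**
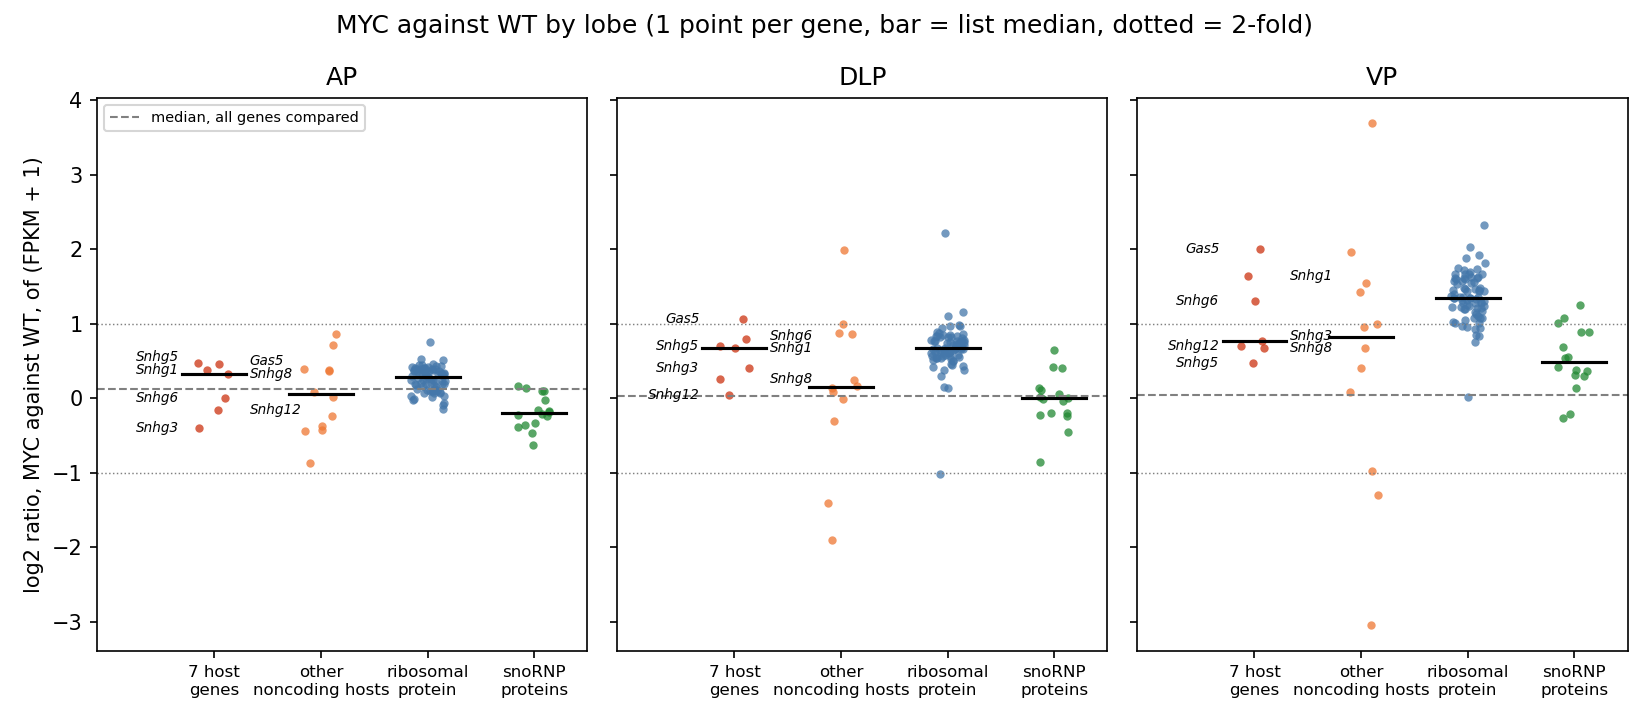
Log2 ratio of MYC against WT in each lobe, with 1 point per gene, for the 7 hosts (named), the other noncoding hosts, the ribosomal protein genes and the snoRNP protein genes; bars are list medians, the dashed line the median of all genes compared and dotted lines mark 2-fold. In VP the ribosomal protein genes gather around a median of 1.35, with Gas5 and Snhg1 above it and Snhg3, Snhg5, Snhg8 and Snhg12 below it.

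The genes of proteins that bind or assemble with snoRNAs had a lower median log2 ratio than the 7 hosts in all 3 lobes. Of 17 listed snoRNP core and assembly genes, 16 were compared, and their median log2 ratio in AP and VP was -0.20 and 0.48, with 8 of 16 above 0 in DLP. In VP, 3 were at least 2-fold higher (background 6.88%). Nop56, a core protein of C/D box particles and itself a host, was the highest in VP, with 46.1, 49.7 and 37.7 FPKM in WT AP, DLP and VP and 45.5, 66.6 and 91.7 FPKM in MYC, a VP log2 ratio of 1.26. Nhp2 of the H/ACA particle had 1.08 and Ruvbl2, an assembly ATPase, 1.01. The lowest was Naf1, an H/ACA assembly factor, at -0.27. Both enzymes were named after their values were seen: Fbl, the methyltransferase of C/D particles, had 0.69, and Dkc1, the pseudouridine synthase of H/ACA particles, had 0.89. Nop58, the partner of Nop56, lay below WT in all 3 lobes, with log2 ratios of -0.63, -0.85 and -0.20.

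Among 20 coding hosts other than ribosomal protein genes, 4 were at least 2-fold higher in VP (background 6.88%), Rack1 of the small ribosomal subunit (log2 ratio 1.99), the translation elongation factors Eef1b2 (1.97) and Eef2 (1.57), and Nop56. Nop58 was the lowest. The list median in AP, DLP and VP was 0.02, 0.08 and 0.62. Among 15 genes of nonsense-mediated decay and the exon junction complex, none was 2-fold different in any lobe. Of all genes, 2.05%, 6.46% and 6.88% were at least 2-fold higher in AP, DLP and VP, and 0.599%, 3.39% and 5.95% at least 2-fold lower. For a list of 15 genes, a count of none is near these shares. The medians of the 15 genes were -0.03, 0.07 and 0.06. The highest of them in VP was Upf2, with 11.6 FPKM in WT and 18.1 FPKM in MYC, and the lowest was Magoh, with 47.6 and 43.6 FPKM.

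The snoRNAs themselves could be read only in part. Of the 26 snoRNA genes inside the 7 hosts, 8 had a row in the table under their RefSeq symbol (many others carry only a locus number there), and 4 of these (Snord47, Snord87, Snora61 and Snord99) were listed at 0 in all 6 libraries. Snord22, inside Snhg1, had 274, 261 and 203 FPKM in WT AP, DLP and VP and 335, 298 and 259 FPKM in MYC. Its log2 ratio in VP was 0.35, while that of Snhg1 was 1.64. Snora44, inside Snhg12, was listed at 32.0 FPKM in WT AP and 24.5 FPKM in MYC AP and at 0 in the other 4 libraries. Poly(A) selection and the short length of these RNAs, 56 to 205 bases, make such rows a poor basis for the level of mature snoRNA.

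Genes next to the hosts gave the local background. Gas5 overlaps the annotated span of Zbtb37, which had at most 1.79 FPKM, and Snhg6 overlaps that of Mcmdc2, with at most 0.102 FPKM. Slc3a2, which encodes an amino acid transporter chain and whose annotated span lies 117 bases from that of Snhg1, had log2 ratios of -0.72, -0.26 and -0.20 in AP, DLP and VP, below 0 where Snhg1 was above. Wdr74, on the other side of Snhg1 at 9468 bases, had 0.02, 0.09 and 0.60. Beside Snhg12, Trnau1ap at 738 bases had 0.04, 0.21 and -0.03. Rcc1, the next coding gene on the lower side of Snhg3, had -0.22, 0.17 and 0.55, the same signs as Snhg3. The nearer Phactr4, on the other side at 2235 bases, had -0.04, 0.42 and -0.31.

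Over the 6 libraries, the profile of the hosts was taken as the mean of their centred log2(FPKM + 1) values, and the 5353 genes whose mean reached 10 FPKM were ranked by Pearson's r with it. Among the 10 most alike were Tfdp1 (r = 0.995), Zfas1 (0.994), Rpl7 (0.994), Cln6 (0.992), Rps15a-ps4 (0.992), Ucp2 (0.990), Rps15a (0.990), Cct8 (0.990) and Srpk1 (0.990). Tfdp1 encodes a partner of E2F factors, Cct8 a chaperonin subunit and Srpk1 a kinase of splicing factors. The 79 ribosomal protein genes had a median r of 0.960, and 71 of them were above 0.9, beside a median of 0.109 and 327 genes above 0.9 over all ranked. With 6 libraries of 2 mice these values are descriptions. Each member's r with the mean of the other 6 was highest for Gas5 (0.987) and Snhg6 (0.949) and lowest for Snhg3 (0.721) and Snhg5 (0.727).

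Levels of cell type markers also differed between the genotypes. In bulk RNA, more cells of a type and more RNA per cell cannot be told apart. In MYC VP and MYC DLP, the 14 hematopoietic markers compared had median log2 ratios of 1.24 and 1.72, and in AP -0.06. As deposited, MYC VP was the highest of the 3 MYC libraries for 5 of the 7 hosts, beside 37.8% of all genes. Relative to Krt8 and Krt18 it was so for 0 of 7, beside 2.81% of all genes. Snhg5 and Snhg8 were highest in MYC DLP as deposited. The hematopoietic sum was also highest in MYC DLP. Smooth muscle markers (8 genes) had medians of 0.65, -0.83 and -0.92 in AP, DLP and VP, and luminal markers (8 genes) of -0.22, -0.22 and -0.44. Dissociation response genes (14 genes) had medians of 0.14, 0.02 and -0.53. Basal markers (5 genes) had -0.21, 0.48 and -0.60, fibroblast markers (8 genes) 0.41, -0.32 and -0.88, and endothelial markers (8 genes) 0.07, 0.03 and -0.01. The part of these lists, and of the seminal vesicle genes in MYC AP, in the values of the hosts was not tested.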

How the data were processed

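The authors mapped single-end reads to mm10 with STAR, computed FPKM with Cufflinks and deposited 1 table of 6 libraries. Though the table is labelled as counts, its values are not whole and sum to between 374085 and 483143 per library. With 1 library per group, no count model or p-value was used. The gene annotation and strand setting of the counting are not given in the sources used here. The members and gene lists were chosen with earlier results of these data known. Values were compared as log2(FPKM + 1) for genes whose mean reached 1 FPKM, and at least 2-fold was the threshold. Alternatives were other scalings, pseudocounts, filters and thresholds. Named genes were all members, all other noncoding hosts, the extremes of the other lists in VP, the 10 genes most alike and the snoRNAs inside members, of which a few are not reported here.

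Depth was recovered from single-exon, single-transcript genes longer than 600 bases below 0.3 FPKM, whose FPKM times length less 200 bases falls in steps; 33.3% to 50.3% of these values lay within 0.03 of a whole read. Member reads (264 to 26170 where a length was found) were estimated from the mean GENCODE M1 transcript length, and exact binomial (Clopper-Pearson) 95% intervals of their ratio cover counting error only. Of the 12361 genes compared, 12123 were found in RefSeq (GRCm38.p6) by symbol. Computations were tested on simulated libraries. Values were computed in Python 3.11.15 with scipy 1.17.1, pandas 2.3.3 and numpy 2.4.6 and drawn with matplotlib 3.10.9.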

Additional observations from a re-analysis of the deposited data

Results flagged for a closer look

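In 2 of the 7 hosts the log2 ratio of MYC against WT was below 0 in AP and above 0 in VP, with the AP value beyond counting error for Snhg3 only. Of the 12361 genes compared, 4117 were below 0 and 8206 above 0 in AP. In VP, 5737 were below 0 and 6582 above 0. The share of all genes with such a change of sign was not computed. Snhg3 had a log2 ratio of -0.40 in AP and 0.77 in VP, a difference of 1.17. Snhg12 had -0.15 and 0.70, a difference of 0.85, and its AP interval of -0.32 to 0.01 includes 0. Among the other noncoding hosts, the VP value exceeded the AP value across 0 for Snhg7 (by 2.34), Snhg20 (by 2.30), Snhg17 (by 1.43), Dancr (by 1.11) and Snhg10 (by 0.63). The reverse was seen for Snhg18 (difference -3.43), Snhg9 (-1.83) and Snhg11 (-1.70). None of these differences was tested, since each lobe and genotype has 1 library.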

How the results depend on the processing

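No paired analysis was possible because the labels number no replicates and each group has 1 library. The ratios compare libraries of the same lobe, but the 3 lobes of a genotype come from 1 mouse and are not replicates. No library was left out, since a comparison holds 1 per group. The median log2 ratio of the 7 hosts in VP was 0.54 with equal sums of FPKM, 0.50 with equal sums without the 20 highest genes and 1.02 relative to Krt8 and Krt18. In DLP it was 0.51 and 0.44 under the last 2 of these. The number of hosts at least 2-fold higher in DLP was 0 under the same 2 scalings and with a 4-fold threshold, and 4 with a 1.5-fold one. In VP it was 0 at 4-fold and 6 at 1.5-fold. The median of the ribosomal protein genes in AP, DLP and VP was 0.16, 0.63 and 1.23 with size factors from medians of ratios, 0.24, 0.51 and 1.08 with equal sums without the 20 highest genes, and 0.48, 0.44 and 1.62 relative to keratins. With equal sums it was 0.62 in DLP and 1.12 in VP.

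Between lobes, the medians of the hosts relative to keratins were -0.19 (MYC DLP against AP), -0.74 (MYC VP against AP), -0.80 (MYC VP against DLP), -1.72 (WT VP against AP) and -1.78 (WT VP against DLP). With equal sums they were 0.019 (MYC DLP against AP), 0.40 (MYC VP against AP) and -0.18 (WT DLP against AP). Without the 20 highest genes the first 2 were 0.058 and 0.53, and medians of ratios gave -0.045 for WT VP against DLP. The causes of these shifts were not tested. Over all genes, the VP median lay between -0.18 and 0.24 across scalings, with 0.04 as deposited. Of 75 values of the 5 hosts with a transcript length, 34 moved beyond their counting interval. Snhg6 in AP and Snhg12 in AP and DLP changed sign. At this depth Snhg12 in AP and DLP was not distinguishable from 0, nor, with a stand-in length of 443 bases, were Snhg6 in AP and Snhg8 in AP and DLP.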
